A study of Homo sapiens with 4 samples.

Results

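The 45S ribosomal RNA genes encode the long precursor from which the 18S, 5.8S and 28S ribosomal RNAs are cut, and the RefSeq table of GRCh38 names 5 of them, RNA45SN1 to RNA45SN5, among 59792 annotated genes. A gene was taken as a member when the table placed its own 18S, 5.8S and 28S gene inside it, and all 5 passed. Every peak that overlapped one of these genes by at least 1 bp, or lay within 15 kb of one, was then collected from the peak lists of 2 ChIP-seq libraries. These were 17 of the 12662 peaks in the list labelled HA and 33 of the 6874 peaks in the list labelled WT.

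The 4 libraries came from untreated K562 cells, a human leukemia cell line, that overexpressed either HA-PHF6 or the HA tag alone. Chromatin was immunoprecipitated with an antibody against the HA tag (Abcam, ab9110), and each label had 1 ChIP library and 1 input library. The titles carry HA or WT and do not say which cells were meant by either word, so the libraries are named here by their labels and no direction is read as an effect of PHF6. With 1 ChIP library per label, no difference between the libraries could be tested against replicates. All intervals below are 95% intervals that cover counting error only.

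In human cells the 45S repeats lie in long tandem arrays, where RNA polymerase I transcribes them in the nucleolus. Each transcript starts with a 5′ external spacer, continues through 18S, internal spacer 1, 5.8S, internal spacer 2 and 28S, and ends with a short 3′ external spacer. An intergenic spacer follows before the next repeat. PHF6 is a PHD-finger protein of the nucleus and nucleolus, it is mutated in T-cell leukemia, and it has been linked to the control of ribosomal RNA synthesis. Reference genomes hold only a few of the many copies a cell has, so reads from any copy can align only to those few.

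RNA45SN1 spanned chr21:8433222-8446572, RNA45SN2 spanned chr21:8205988-8219302 and RNA45SN3 spanned chr21:8389035-8402343. RNA45SN4 was placed at 122273 to 135645 of the unlocalized contig KI270733.1, and RNA45SN5 at 105424 to 118780 of the unplaced contig GL000220.1. The gene table does not name these contigs for the last pair. They were assigned from knowledge of GRCh38, so positions at RNA45SN4 and RNA45SN5 rest on that assignment. All 5 genes read along the plus strand, as the order of their 18S, 5.8S and 28S genes shows, and they were between 13309 and 13373 bp long. Positions inside the repeat are given below as the distance of a peak's summit from the start of its 45S gene.

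Some microRNA genes are annotated inside or beside these repeats, and their RefSeq sequences are printed to show the letters of the 5′ spacer and of the stretch before the start of the transcript. Over the printed loci themselves neither list held a peak, and the peaks described below lay over MIR3648-1 (labelled WT) or at the matching distance in another copy. MIR6724-4 (chr21:8432530-8432621, plus strand) lies 601 bp before the start of RNA45SN1, and no peak of either list lay at that distance in any copy. MIR10396B (chr21:8436324-8436374, plus strand) lies in the 5′ external spacer of RNA45SN1, at 3102 to 3152 bp from its start. For both hairpins, capitals mark the annotated mature arms. The mature hsa-miR-3648 is shown from its MIR3648-2 locus (chr21:8987026-8987046, plus strand) with the seed, bases 2 to 8, in capitals. Its other locus, MIR3648-1 (chr21:8208473-8208652), lies in the 5′ external spacer of RNA45SN2.
MIR6724-4: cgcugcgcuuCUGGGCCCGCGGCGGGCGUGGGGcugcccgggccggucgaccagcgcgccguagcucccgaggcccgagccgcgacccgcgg
MIR10396B: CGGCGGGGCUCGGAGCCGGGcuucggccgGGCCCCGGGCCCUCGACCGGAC
hsa-miR-3648: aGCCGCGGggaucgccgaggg
G and C made up 83.7% of the MIR6724-4 hairpin, 86.3% of the MIR10396B hairpin and 81.0% of hsa-miR-3648. No RNA level was measured in these libraries.

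The library labelled HA held 16132466 ChIP tags and the library labelled WT held 22257947, which is 1.38 times as many. A value called pileup counts the extended tags that cover a peak's summit, the local background is the number that the input and the genome-wide density lead the peak caller to expect there, and the fold enrichment compares that pileup with that background after 1 is added to each. The genome-wide background was 1.05 tags in the library labelled HA and 1.68 in that labelled WT. Only uniquely mapped, deduplicated tags were counted, so a stretch that is identical between copies can gather no tags, and the loss of duplicates limits a pileup to 402 and 468 tags. The highest pileup at a 45S gene was 32.8% of that limit in the library labelled HA and 52.6% in that labelled WT.

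Within 15 kb, 4 of the 5 45S genes held a peak in the list labelled HA and all 5 did in the list labelled WT. Among 58961 genes on the assembled chromosomes, 21.2% had a peak within 15 kb in the list labelled HA and 10.4% in that labelled WT. A peak overlapped the 45S gene itself in 3 of 5 copies in the list labelled HA and in 4 of 5 in that labelled WT, beside 9.74% and 4.55% of all genes on assembled chromosomes. These genes share sequence and 2 of the 5 lie on contigs, so they are not independent samples of the genome. The exception in the list labelled HA was RNA45SN1, whose peaks in the list labelled WT all lay outside the gene. They were the summits of a region 13074 and 12755 bp upstream, and a downstream peak of 7 tags that missed a q-value under 0.05.

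The peaks clustered in the spacers and the 28S gene of a few copies. By the place of the summit, the list labelled HA had 3 peaks in the 5′ external spacer, 2 in internal spacer 1, 2 in internal spacer 2, 3 in 28S and 7 downstream of the gene. The list labelled WT had 4 peaks upstream, 5 in the 5′ external spacer, 2 in internal spacer 1, 3 in internal spacer 2, 3 in 28S and 16 downstream. No summit in either list fell in 18S or 5.8S, the genes for the small-subunit RNA and for the short RNA that pairs with 28S, and no peak overlapped them. Whether tags could be placed uniquely in these stretches was not tested.

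RNA45SN4 held the most peaks in both lists, 9 labelled HA and 13 labelled WT, and RNA45SN2 was next with 4 and 11. RNA45SN3 held 1 and 2, RNA45SN5 held 3 and 4, and RNA45SN1 held 0 and 3. Of the 13373 bp of RNA45SN4, 12.7% lay under a peak labelled HA and 26.8% under a peak labelled WT. The same share of RNA45SN2 was 6.26% and 11.1%, that of RNA45SN3 was 0% and 2.22%, and that of RNA45SN5 was 0.674% and 0.988%.

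Peaks of different copies were then set on a common scale of distance from the gene start. A peak whose span overlapped that of a peak in at least 1 other copy was seen for 2 of the 17 peaks labelled HA and for 15 of the 33 labelled WT. Overlap of spans does not mean equal summits, and the 3 summits of the long 5′ spacer region of RNA45SN4 labelled WT all met the same peak of RNA45SN2. The pair labelled HA lay at the end of the transcript, with summits 13442 bp from the start in RNA45SN4 and 13386 bp from the start in RNA45SN5. The RNA45SN5 peak of this pair did not reach a q-value under 0.05, with a −log10 q of 1.04. At that place the list labelled WT held a region of 1277 bp in RNA45SN4, whose span was overlapped by peaks in 3 other copies, namely RNA45SN1, RNA45SN2 and RNA45SN5. The RNA45SN5 summit lay at 13379 bp, and those of RNA45SN1 and RNA45SN2 lay further on, at 13918 and 13951 bp. The RNA45SN1 peak had 7 tags and did not reach a q-value under 0.05. Each summit of the 1277 bp region was counted among the 15.

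The 45S peaks were tall on a high background. Their median pileup was 44 tags in the library labelled HA, against 5 over its whole list, and 67 in the library labelled WT, against 8. The median local background was 14.6 tags, against 1.05 over the list labelled HA, and 18.1, against 1.89 over the list labelled WT. The background lay more than 5% above the genome-wide level in 17 of 17 peaks labelled HA and 32 of 33 labelled WT, beside 43.5% and 70% of all peaks in the lists. The median fold enrichment was 2.99 labelled HA and 3.08 labelled WT, against 2.93 and 2.84 over the whole lists.

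**Figure D1:**
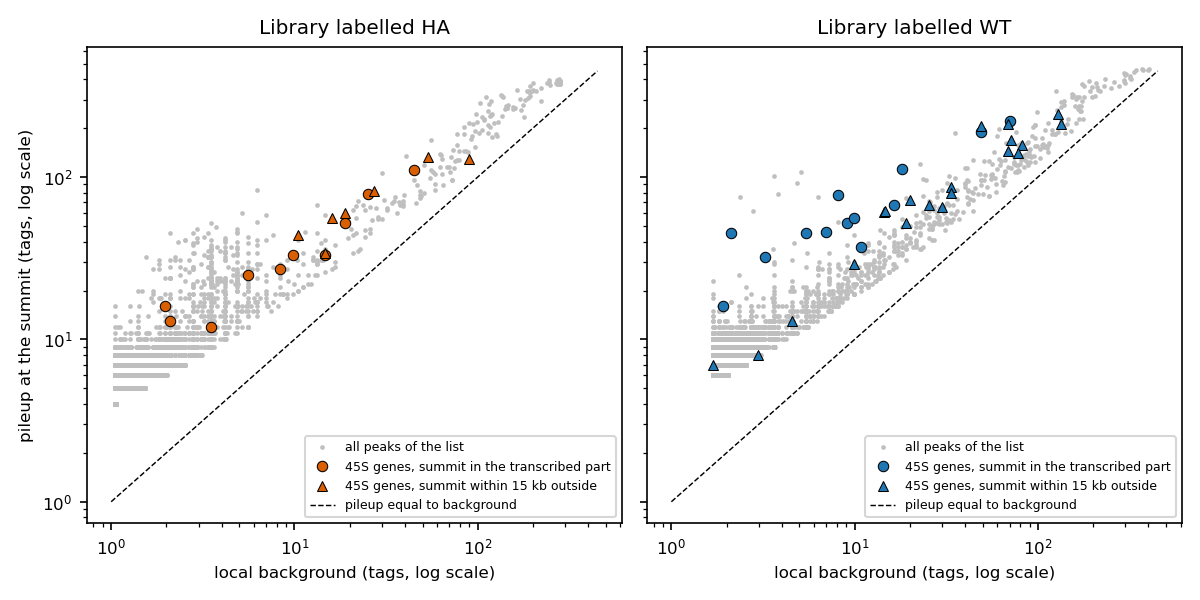
Pileup at the summit against the local background of every peak, both in tags on log scales, for the library labelled HA (left) and labelled WT (right). Grey points are all peaks of the list and coloured points are peaks at the 45S genes. The median 45S peak has a pileup of 44 tags on a background of 14.6 (HA) and of 67 on 18.1 (WT).

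A q-value under 0.05 was reached by 13 of the 17 peaks labelled HA and 30 of the 33 labelled WT, beside 5.08% and 6.24% of all peaks in the lists. Ranked by q-value, none of the first 100 peaks labelled HA lay at a 45S gene and the best held rank 110, whereas 21 of the first 100 peaks labelled WT did and the best held rank 7. A fold enrichment of at least 5 was seen in 1 peak labelled HA and 9 labelled WT, beside 1.45% and 0.684% of all peaks. Those 9 peaks were 19.1% of the peaks in the list labelled WT that reached this fold. At a given fold, the q-value falls as the pileup rises.

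In the 5′ external spacer, the first stretch that RNA polymerase I transcribes, the list labelled WT held the highest fold enrichment of any 45S peak in either list. It lay in RNA45SN2 (chr21:8208350-8208800) with its summit 2528 bp from the start, a pileup of 45 tags, a background of 2.12 and a fold of 14.7, which was rank 7 by fold in that list. This peak covers MIR3648-1. RNA45SN2 had no peak there in the list labelled HA. At a like distance in RNA45SN4, 2483 bp, the library labelled HA had a pileup of 33 on a background of 9.76 and a fold of 3.16, and the library labelled WT had 67 on 16.3 and 3.93 at 2476 bp. The same place thus showed a fold near 3 or 4 in one copy in both libraries, and a high fold in another copy in 1 library only.

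RNA45SN4 held 2 further 5′ spacer peaks in both lists. At 2045 bp the library labelled HA had a pileup of 12 and a fold of 2.89, and the library labelled WT had 46 and 5.88 at 2065 bp. At 3062 bp the library labelled HA had 33 tags on a background of 14.6 and a fold of 2.17, and the library labelled WT had 56 on 9.97 and 5.20 at 3065 bp. Neither of these 2 peaks labelled HA reached a q-value under 0.05, with a −log10 q of 0.212 at 2045 bp and 0.707 at 3062 bp. The letters of MIR10396B, whose own locus is in RNA45SN1, lie at the distance of the pair at 3062 and 3065 bp. A peak 786 bp from the start, with a pileup of 16 and a fold of 5.85, was held by the list labelled WT and not by the list labelled HA.

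In the internal spacers, which are removed as the precursor is cut, RNA45SN4 held the highest fold of the 45S peaks labelled HA. Its summit lay 5698 bp from the start in internal spacer 1, with a pileup of 16 on a background of 1.98 and a fold of 5.71, and the peak labelled WT at 5723 bp had 32 on 3.22 and 7.82. The neighbouring pair had a pileup of 13 and a fold of 4.53 labelled HA at 6241 bp, and 37 and 3.20 labelled WT at 6250 bp. This was the one pair in the transcribed part whose fold was higher in the library labelled HA.

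In internal spacer 2 the taller pair was in RNA45SN4, where the library labelled HA had 79 tags on 25.1 and a fold of 3.06 at 7792 bp, and the library labelled WT had 189 on 48.9 and 3.81 at 7811 bp. In RNA45SN2 the pileup was 52 on 18.8 with a fold of 2.67 in the library labelled HA, and 112 on 18.1 with a fold of 5.91 in the library labelled WT. RNA45SN3 held an internal spacer 2 peak in the list labelled WT only, with a pileup of 45, a background of 5.44 and a fold of 7.15 at 7711 bp. It was the only peak inside RNA45SN3 in either list.

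In 28S, the large-subunit RNA gene, peaks stood near its start in RNA45SN2 and at its end in RNA45SN4. The RNA45SN2 region (chr21:8214627-8215145 labelled HA, chr21:8214543-8215210 labelled WT) had 2 summits in each list. At the first, the pileup was 25 with a fold of 3.94 labelled HA and 52 with a fold of 5.27 labelled WT. At the second, 27 tags on a background of 8.37 gave a fold of 2.99 labelled HA, and 78 on 8.15 gave 8.63 labelled WT, which is the widest gap in fold among the shared places. At the end of 28S in RNA45SN4 the pileup was 111 with a fold of 2.45 labelled HA and 220 with a fold of 3.08 labelled WT.

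At the end of the transcript and beyond it, where RNA polymerase I stops and the intergenic spacer begins, each library had its tallest 45S peak. The median pileup of the downstream peaks was 60 tags labelled HA and 76 labelled WT, beside 65.5 and 112 in internal spacer 2. The smallest q-value of all 45S peaks labelled WT belonged to a summit 13467 bp from the start of RNA45SN4 (KI270733.1, 134928 to 136204), with 206 tags on 48.9, a fold of 4.15 and a −log10 q of 56.0. The peak labelled HA at 13442 bp had 82 tags on 27.2, a fold of 2.94 and a −log10 q of 11.9. The smallest q-value labelled HA belonged to RNA45SN5 at 14470 bp, with 132 tags on 53.7, a fold of 2.43 and a −log10 q of 13.8, and the library labelled WT had 211 on 68.9 and 3.03 there. The tallest peak of each label in RNA45SN2, at 13973 bp labelled HA and 13951 bp labelled WT, had 129 and 246 tags. The backgrounds were 89.3 and 129, so that the folds were 1.44 and 1.91. Of these, the peak labelled HA missed a q-value under 0.05, with a −log10 q of 0.469.

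Further into the intergenic spacer, 3 pairs had a higher fold in the library labelled HA. They lay in RNA45SN3 at 16565 bp, with folds of 3.08 labelled HA and 2.55 labelled WT, in RNA45SN4 at 16969 bp, with 3.93 and 2.65, and in RNA45SN5 at 15444 bp, with 3.35 and 2.14. The intervals of the folds overlapped at each of them. Within the 15 kb searched past each gene's end, the peaks more than 19 kb from a gene start were all labelled WT, 5 of them in RNA45SN2 between 22750 and 28461 bp with folds from 1.58 to 4.04, and 2 in RNA45SN4 at 19389 and 27253 bp with folds of 2.35 and 2.27.

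Upstream of the genes, where the promoter and the spacer before it lie, the list labelled HA held no peak. The list labelled WT held 4 upstream, of which 2 were summits of 1 region more than 12 kb before RNA45SN1, inside the transcribed pseudogene CDC27P10, with pileups of 145 and 158 and folds of 2.09 and 1.93. The other upstream peaks lay 3021 bp before RNA45SN4 and 3317 bp before RNA45SN5, with folds of 2.74 and 2.53. No peak of either list overlapped the first 500 bp before or after a 45S start.

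Between the transcribed part and the stretch downstream, the median folds lay far apart under the label WT and close together under the label HA. In the list labelled WT the 13 peaks with a summit in the transcribed part had a median fold of 5.85 and a median background of 9.06, and the 16 downstream had a median fold of 2.56 and a median background of 31.7. In the list labelled HA the 10 transcribed peaks had a median fold of 3.03 on a median background of 9.07, and the 7 downstream had 2.94 on 18.8. Among the separate parts labelled HA, internal spacer 1 stood higher, with a median fold of 5.12 from 2 peaks. The medians of the other parts that held a summit ran from 2.87 to 2.99. The background moved with the part of the repeat in both lists, and its part in the folds was not tested.

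**Figure D2:**
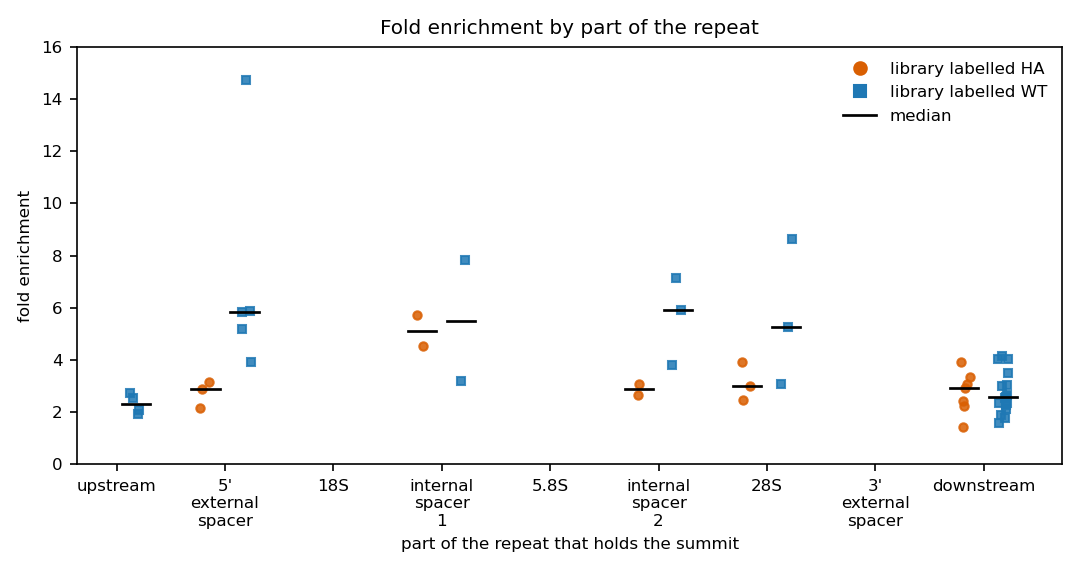
Fold enrichment of each 45S peak by the part of the repeat that holds its summit, with circles for the library labelled HA, squares for the library labelled WT and a line at the median. Squares in the transcribed spacers and 28S reach 14.7 and have a median of 5.85, and those downstream stay at or under 4.15.

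The lists held the same places to an unequal degree. All 17 peaks labelled HA overlapped a peak labelled WT (100%), beside 1.67% of all peaks in the list labelled HA. Of the 33 peaks labelled WT, 17 overlapped a peak labelled HA (51.5%), beside 3.08% of all peaks in the list labelled WT. The 17 and 33 peaks came from 16 and 28 regions in copies that share sequence. They are not independent, so no interval is given. Peaks that passed the q-value threshold were shared more often over the whole lists too. Among peaks with a q-value under 0.05, 21% of those labelled HA and 29.4% of those labelled WT overlapped the other list, and at the 45S genes the counts were 13 of 13 and 17 of 30. The 45S peaks made up 8.02% of the 212 shared peaks of each list. Summits of paired peaks lay between 0 and 37 bp apart, with a median of 19 bp.

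When the spans of peaks were matched by place in the repeat without regard to copy, 21 of the 33 peaks labelled WT (63.6%) had a partner labelled HA.

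Across the 17 shared places the fold was higher in the library labelled WT at 13 and in the library labelled HA at 4, and the ratio of WT to HA had a median of 1.32 and ran from 0.639 to 2.89. In the transcribed part it was higher in the library labelled WT at 9 of 10, with a median ratio of 1.35, and downstream at 4 of 7, with a median of 1.25. The counting intervals of the folds were apart at 3 places, all in the transcribed part, namely internal spacer 2 and the second 28S summit of RNA45SN2 and the 5′ spacer of RNA45SN4 at 3062 bp. At these 3 the background relative to the genome-wide level was lower in the library labelled WT, at 0.599, 0.607 and 0.424 times that in the library labelled HA. Over all 17 places this ratio of backgrounds had a median of 1.02.

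The pileup itself was divided by the genome-wide background of its library, a scaling chosen after seeing the data. Its ratio of WT to HA then had a median of 1.26 over the 17 places, 1.32 in the transcribed part and 0.995 downstream. Divided by the ChIP tags of its library, the planned scaling, the pileup had a median ratio of 1.47 over the 17 places. With the scaling by background, the interval of the ratio lay above 1 at 4 places, below 1 at 0 and held 1 at 13. Each ratio was higher with the scaling by tags, for which no intervals were computed. The counts of intervals therefore hold for the scaling by background only. The 4 were the second 28S summit of RNA45SN2 at 1.80 (1.15 to 2.90), and RNA45SN4 at 2045 bp with 2.39 (1.24 to 4.95), at 7792 bp with 1.49 (1.14 to 1.96) and at 13442 bp with 1.56 (1.21 to 2.05). Of the 3 places whose folds were apart, 1 was among these. The others were internal spacer 2 of RNA45SN2 at 1.34 (0.957 to 1.90) and RNA45SN4 at 3062 bp with 1.06 (0.675 to 1.68). The peaks labelled HA at 2045 and 3062 bp of RNA45SN4 had missed a q-value under 0.05.

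Incomplete copies of the repeat, annotated as 18S pseudogenes, gave a like picture on the contigs. Near RNA18SP4, on the contig of RNA45SN4, the list labelled HA held 4 peaks with folds from 2.46 to 3.77 and the list labelled WT held 9 with folds from 1.92 to 5.17. Near RNA18SP3, on the contig of RNA45SN5, the counts were 2 and 4. Near RNA18SP5, on chromosome 21, neither list held a peak. All 6 peaks labelled HA overlapped a peak labelled WT, and 6 of the 13 labelled WT overlapped a peak labelled HA. Of the 26 ribosomal RNA pseudogenes on assembled chromosomes, 4 had a peak labelled HA and 5 a peak labelled WT within 15 kb. Of all genes on assembled chromosomes, 21.2% labelled HA and 10.4% labelled WT did. None of the 26 had a peak of either list in the gene itself, beside 9.74% and 4.55% of all genes.

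The 5S genes make the one ribosomal RNA that RNA polymerase III transcribes, in a tandem array on chromosome 1. None of the 17 5S genes held a peak in either list, beside 9.74% labelled HA and 4.55% labelled WT of all genes on assembled chromosomes. Whether tags could be placed uniquely in the 5S genes was not tested. Between genes of the array the list labelled WT held 2 peaks, with pileups of 71 and 17 and folds of 2.73 and 5.77, and all 17 genes therefore had a peak within 15 kb in that list and none did in the list labelled HA.

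Genes whose products act on the repeats or on their transcript were counted by peaks in the gene itself. Of 21 genes for RNA polymerase I transcription, 2 held a peak labelled HA and 1 a peak labelled WT, and of 16 genes for chromatin regulators of the repeats, 3 and 2 did. Of 25 genes for the processing of the precursor, 5 held a peak labelled HA and 2 a peak labelled WT. The shares were 9.52% and 4.76% for the polymerase I list, 18.8% and 12.5% for the chromatin list and 20% and 8% for the processing list, beside 18.1% and 8.63% of all protein-coding genes. The genes for polymerase subunits were POLR1B and POLR1E, with folds of 2.39 and 2.96 labelled HA, and POLR1A, which encodes the largest subunit, with 2.98 labelled WT. The chromatin genes were the histone demethylase gene PHF2 (fold 2.44), KDM2B (3 peaks, with pileups of 5, 5 and 6) and CTCF (2.20) labelled HA, and KDM2A (2.17 and 2.70) and BAZ2A (2.48), a subunit of the nucleolar remodeling complex, labelled WT.

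RMRP, the RNA of a ribonuclease that cuts the ribosomal RNA precursor, was the one gene of these lists with a peak in both libraries and the one with a q-value under 0.05. Its pileup was 16 with a fold of 3.79 and a −log10 q of 2.25 in the library labelled HA, and 34 with a fold of 5.37 and a −log10 q of 11.1 in the library labelled WT. The other processing genes were EXOSC10 (fold 3.31), of the RNA exosome, together with WDR12 (3.42), TCOF1 (2.93) and NOL11 (2.62) labelled HA and UTP4 (2.20) labelled WT, with pileups from 5 to 8 tags.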

How the data were processed

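The authors sequenced ChIP and input libraries of K562 cells as paired ends. Per the submitters' processing notes, reads were aligned with BWA 0.7.12 and peaks called with MACS2 2.1.0; the genome build is not given in the sources used here, and the contig names of the lists are those of GRCh38. Per the file headers, MACS 2.1.0.20150420 compared uniquely mapped, deduplicated tags of each ChIP library with its own input at a p-value cut-off of 0.005, with summits called and tags extended to 201 bp (labelled HA) or 234 bp (labelled WT). The deposited pileup is a signal of tag coverage at the summit, the deposited fold is a ratio of (pileup + 1) to (background + 1), and p-values and q-values were deposited as −log10. The background was recomputed as (pileup + 1) / fold − 1. The input libraries have no list of their own.

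Peaks were joined to RefSeq genes with pandas 2.3.3 under Python 3.11.15, and the scripts were tested on simulated data. Pileup intervals are exact Poisson (SciPy 1.17.1), and ratios are conditional exact binomial. Places shared between lists overlapped by at least 1 bp. No promoter or genome sequence of the repeats was used. The named genes are the 45S genes with their 18S, 5.8S and 28S genes, listed genes holding a peak, and genes annotated within 15 kb. The members and gene lists were chosen with earlier results of these data known.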

Additional observations from a re-analysis of the deposited data

How the results depend on the processing

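Of the 66 alternative values, 47 stayed within the limits set for a change and 19 moved. With −log10 q at 5 or more, 9 peaks labelled HA were left. At a fold of at least 5, 1 peak labelled HA and 9 labelled WT remained, near 1 and 3 of the 5 genes. Counting the gene body alone left 15 peaks labelled WT, with a median fold of 5.27. At a reciprocal overlap of 50%, 45.5% of the peaks labelled WT kept a partner in place. The median ratio of raw pileups, WT over HA, was 2.03. Relative to the ChIP tags of each library, the planned scaling, it was 1.47 and stayed within the limits. It moved to 1.26 relative to the genome-wide background, a scaling chosen after seeing the data. Within 15 kb, genes with a peak labelled WT numbered 17 of 17 (5S), 4 of 21 (polymerase I), 4 of 16 (chromatin) and 3 of 25 (processing). Labelled HA the counts were 0, 2, 4 and 9, in the same order. Of all genes on assembled chromosomes, 10.4% labelled WT and 21.2% labelled HA had a peak within 15 kb. The 5S genes lie in the same array, so their count rests on a few peaks. At a q-value under 0.05, 0 polymerase I and 0 chromatin genes remained under either label, and 1 processing gene under each. No paired analysis was possible because each label has 1 ChIP library and no test was made. The lowest pileup in the whole lists was 4 tags (labelled HA) and 6 tags (labelled WT), and weaker sites could not be seen at this depth. Where the local background is higher, as at most 45S peaks, the p-value cut-off asks for more tags.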
